A study of Homo sapiens with 136 samples.

Results

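Interferon-stimulated genes are the genes that cells switch on after interferon reaches their receptors, and 41 of them were followed through a drug screen in pancreatic cancer cells. The 41 symbols were chosen as a list of known interferon targets, with earlier results of these data known. All were found among the 25435 gene symbols of the count table. In each cell line a member was left out if 1 library held over 25% of its summed CPM (the counts of a gene as a share of the library's total, scaled to 1000000). This removed IFI6 in both lines and BST2 in PANC-1, and left 40 members (AsPC-1) or 39 (PANC-1). In PANC-1 the share held by 1 library was 26.3% for IFI6 and 55.2% for BST2, while CMPK2 at 22.1% and IFI44 at 21.4% were just inside. Of the members left, 39 (AsPC-1) and 27 (PANC-1) had enough counts to be tested. TRIM22 was not tested in AsPC-1, and CMPK2, DDX60, HERC5, HERC6, IFI27, IFI44, IFITM1, MX1, OAS1, OAS2, RSAD2 and TRIM22 were not tested in PANC-1.

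AsPC-1 and PANC-1 are human cell lines from pancreatic ductal adenocarcinoma. Cells were grown for 24 h in culture plates and treated for 24 h, and RNA was counted by PLATE-Seq, which barcodes the RNA of each well and sequences the wells together. The treated groups received 1 of 14 kinase inhibitors together with 1 of 2 autophagy inhibitors. MEK was inhibited with Refametinib, Selumetinib, Binimetinib, Cobimetinib or Trametinib (20 libraries per line). ERK was inhibited with Ravoxertinib, AZD0364, Ulixertinib or SCH772984 (16 libraries per line). RAF was inhibited with Sorafenib, GDC-0879, PLX8394, Dabrafenib or RAF709 (20 libraries per line). The groups they were set against received an autophagy inhibitor alone (12 libraries per line). The autophagy inhibitors were Compound 19, an inhibitor of the lipid kinase Vps34, and hydroxychloroquine, which blocks the breakdown of autophagic cargo in lysosomes. Every library therefore carries an autophagy inhibitor, and no cells without one were analysed here. Each drug was given at the concentration that left 80% of the cells viable after 48 h of that drug by itself, so concentrations differ between drugs and values of different drugs are set side by side without a test. Each combination had 2 libraries per line, 1 on plate A and 1 on plate B. Plates A and B were read from the codes PSA and PSB in the sample titles, which do not use the word plate. Each autophagy inhibitor alone had 6 libraries per line, 3 on each plate. The labels do not say whether wells came from separate cultures, so p-values measure the spread between libraries only.

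As background, type I and type III interferons act through receptors coupled to JAK kinases, which activate the complex ISGF3. This complex contains STAT2 and IRF9 and binds an interferon-stimulated response element (ISRE) in the promoters of its targets. Interferon gamma instead acts through a gamma-activated site (GAS), and IRF1 is a well-known target of that route. The products of these genes detect viral RNA, degrade RNA, block translation or membrane fusion, and conjugate the ubiquitin-like protein ISG15 to other proteins. RAF, MEK and ERK are successive kinases of the growth factor pathway downstream of RAS.

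Promoters were read from the RefSeq promoter table on GRCh38.p14, which covers 250 bases before to 50 bases after each start and matched 33 of the 41 members (DDX58 under its current name RIGI). The ISRE was searched as TTTCNNTTTC on one strand and GAAANNGAAA on the other, and the GAS as TTCNNNGAA, which reads the same on both strands. The ISRE letters were present in 22 of the 33 members (66.7%), against 4.38% of 27305 genes with a promoter in the table. The GAS letters were present in 11 of the 33 (33.3%), against 9.38% of genes. Of the matched members called higher with MEK or ERK inhibitors in AsPC-1, 11 of 16 had the ISRE letters and 8 of 16 the GAS letters. Of the matched members that were tested there and not called, 8 of 14 had the ISRE letters and 3 of 14 the GAS letters. Both members called lower, HERC5 and IFI44, had the ISRE letters. These matches describe the letters in the window and are not binding sites measured here.

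The 150 bases before the start are printed below in the direction of the gene, 5′ to 3′, for 8 members that carry the results: 6 that rose in AsPC-1 with MEK inhibitors, then ISG15, which was not called there, and HERC5, which was called lower. Capitals mark the ISRE letters, except in IRF1, where they mark the GAS, and in PARP14, where the first block is the GAS and the second the ISRE. Overlapping matches are run together.

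IRF1 (chr5:132490774-132490923, minus strand): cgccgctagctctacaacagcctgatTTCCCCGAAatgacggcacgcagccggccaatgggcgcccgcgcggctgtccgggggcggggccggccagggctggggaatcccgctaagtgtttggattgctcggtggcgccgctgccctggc
ISG20 (chr15:88638866-88639015, plus strand): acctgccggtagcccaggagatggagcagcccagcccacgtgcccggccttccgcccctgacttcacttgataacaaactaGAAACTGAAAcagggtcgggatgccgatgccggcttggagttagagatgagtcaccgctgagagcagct
OAS3 (chr12:112938324-112938473, plus strand): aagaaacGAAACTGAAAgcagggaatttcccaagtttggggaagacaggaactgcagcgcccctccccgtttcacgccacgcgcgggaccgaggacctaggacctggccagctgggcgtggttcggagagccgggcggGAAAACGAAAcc
PARP14 (chr3:122680689-122680838, plus strand): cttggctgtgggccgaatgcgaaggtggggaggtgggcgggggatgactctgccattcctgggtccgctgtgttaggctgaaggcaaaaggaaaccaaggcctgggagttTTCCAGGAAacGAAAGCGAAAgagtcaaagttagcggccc
IFITM3 (chr11:320861-321010, minus strand): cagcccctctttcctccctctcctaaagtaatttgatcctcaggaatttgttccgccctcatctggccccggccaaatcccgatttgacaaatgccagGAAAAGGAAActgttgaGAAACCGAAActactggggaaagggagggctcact
IFIT1 (chr10:89392473-89392622, plus strand): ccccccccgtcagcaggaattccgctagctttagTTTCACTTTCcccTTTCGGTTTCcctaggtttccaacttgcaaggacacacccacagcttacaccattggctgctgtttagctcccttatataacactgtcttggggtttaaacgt
ISG15 (chr1:1013347-1013496, plus strand): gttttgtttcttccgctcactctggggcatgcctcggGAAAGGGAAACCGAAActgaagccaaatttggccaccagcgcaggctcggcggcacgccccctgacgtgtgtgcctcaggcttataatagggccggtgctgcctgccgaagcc
HERC5 (chr4:88456969-88457118, plus strand): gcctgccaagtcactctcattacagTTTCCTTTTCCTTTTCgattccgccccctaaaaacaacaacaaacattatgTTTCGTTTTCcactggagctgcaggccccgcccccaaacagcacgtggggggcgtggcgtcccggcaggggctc

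The GAS of IRF1 began 124 bases before the start and no ISRE letters were found in its window. The single ISRE match of ISG20 began 69 bases before the start, and that of PARP14 began 29 bases before it, next to a GAS at 40 bases. OAS3 had matches 143 and 12 bases before the start, IFITM3 at 52 and 35 bases, and IFIT1 at 116 and 103 bases. ISG15 had overlapping matches whose first base lay 113 bases before the start, and HERC5 had 3 matches between 125 and 74 bases before it. BST2, not printed, held 2 overlapping ISRE matches and 2 GAS matches. Neither of the 2 starts listed for UBE2L6, the member with the largest fold change under ERK inhibitors in AsPC-1, had these letters in its window. Both motifs occurred among members that were called and members that were not.

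Library totals ran from 1419228 to 5871860 counts. The labelled cell type was checked with marker genes. In AsPC-1 the summed level of 5 epithelial markers had a median of 5517 CPM with MEK inhibitors, 5484 with ERK inhibitors, 3527 with RAF inhibitors and 3500 in cells with an autophagy inhibitor alone. In PANC-1 the same sums were 465, 479, 621 and 665 CPM. Of 6 immune markers, which could reveal leukocytes as a source of interferon genes, CD3E and MS4A1 were at 0 in all AsPC-1 libraries, and the sum of all 6 stayed at or under 12.9 CPM in AsPC-1 and 9.33 CPM in PANC-1. The sum of 4 endothelial markers stayed at or under 2.97 CPM. The sum of 6 fibroblast markers in AsPC-1 ran from 73.7 to 246 CPM with MEK inhibitors, 88.0 to 281 with ERK inhibitors and 43.3 to 85.3 in cells with an autophagy inhibitor alone. Nearly all of that sum was LUM, a matrix proteoglycan gene (median 116 CPM over the 68 AsPC-1 libraries). The fibroblast genes COL1A1 and DCN had medians of 1.51 and 0.36 CPM, and COL1A2, COL3A1 and PDGFRB a median of 0. In PANC-1 the fibroblast sum ran from 53.9 to 121 CPM with MEK inhibitors, 59.6 to 99.9 with ERK inhibitors and 36.8 to 65.3 with an autophagy inhibitor alone. It was mostly COL1A1 there (median 65.8 CPM over the 68 PANC-1 libraries). COL3A1 had a median of 3.10 CPM, and COL1A2, PDGFRB, LUM and DCN a median of 0. The part of these shifts in the results below was not tested. In bulk libraries, fewer cells that express a gene and less of its RNA per cell cannot be told apart. As a check of the drugs, SPRY4 and DUSP6, feedback genes switched on by ERK, fell in AsPC-1 by 2.84 and 2.0 on the log2 scale with MEK inhibitors, 3.39 and 2.92 with ERK inhibitors, and 0.84 and 0.74 with RAF inhibitors. The same falls in PANC-1 were 3.27 and 3.47, 3.29 and 3.79, and 1.09 and 0.91.

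In AsPC-1, MEK inhibitors were accompanied by higher expression of interferon-stimulated genes. The summed level of the 40 members was 1290 to 1939 CPM (median 1566) in the 20 libraries with MEK inhibitors and 994 to 1279 CPM (median 1156) in the 12 libraries with an autophagy inhibitor alone. All 20 libraries with MEK inhibitors lay above the highest library of an autophagy inhibitor alone. With ERK inhibitors the sum was 1137 to 1923 CPM (median 1516), and 15 of 16 libraries lay above that library. With RAF inhibitors it was 978 to 1679 CPM (median 1263), and 9 of 20 did. This sum is carried mainly by IFITM2, IFITM3 and ISG15, so it was not read as a measure of every member.

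**Figure D1:**
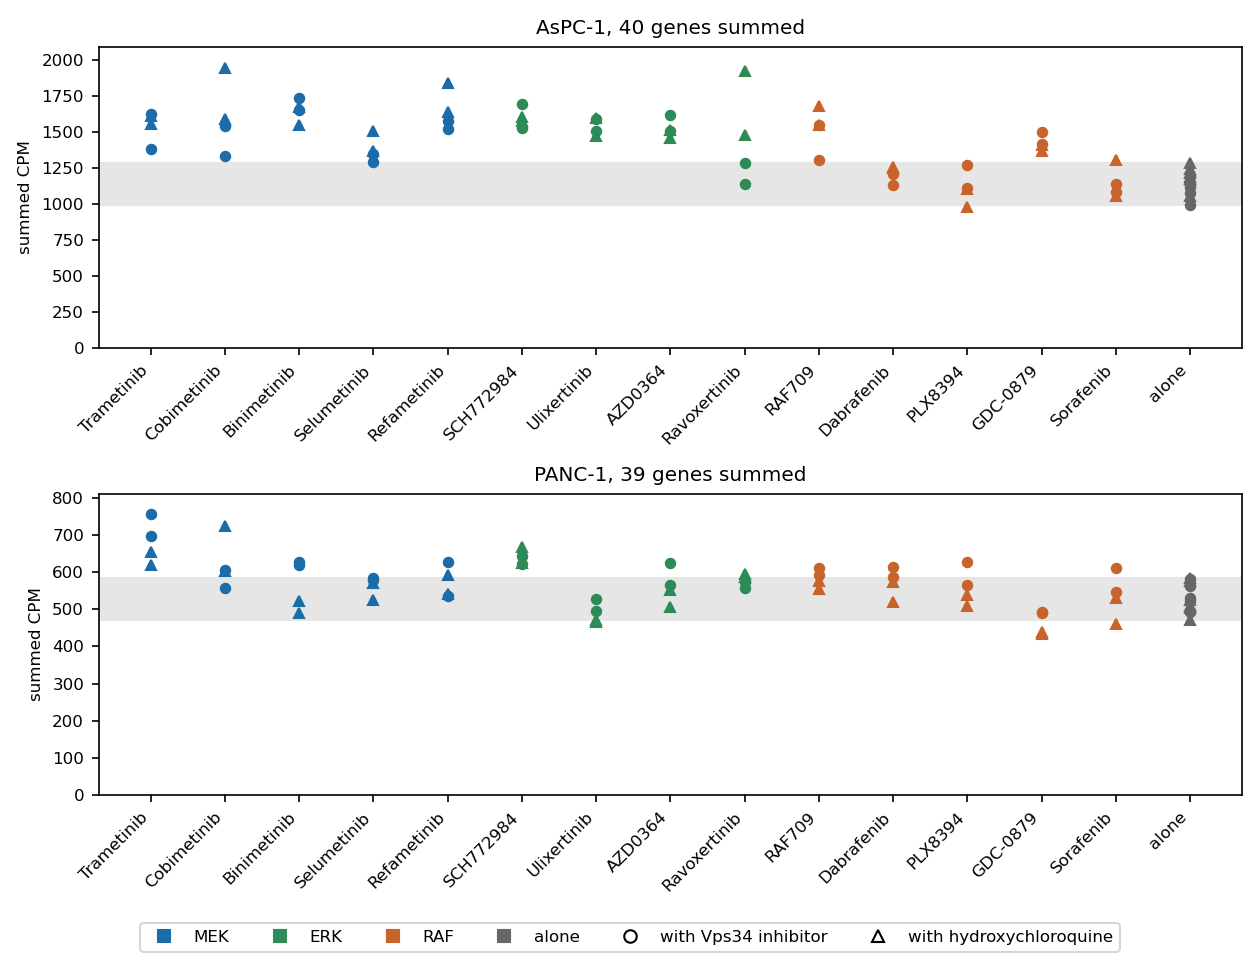
Summed CPM of the members in each library (points), by kinase inhibitor and, at the right, for an autophagy inhibitor alone, in AsPC-1 (top, 40 genes) and PANC-1 (bottom, 39 genes). Circles are libraries with the Vps34 inhibitor and triangles those with hydroxychloroquine, colours give the class, and the grey band spans the libraries with an autophagy inhibitor alone, which had 994 to 1279 CPM (AsPC-1) or 470 to 584 CPM (PANC-1).

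Gene by gene, 18 of the 39 members tested were called higher and 1 lower with MEK inhibitors in AsPC-1 (edgeR's quasi-likelihood test, adjusted over all genes tested, threshold 0.05). Among all genes tested, 12.9% were called higher and 16.1% lower. The median log2 fold change was 0.48 over the members tested and −0.05 over all genes. With ERK inhibitors, 17 members were called higher and 2 lower, against 13.7% and 17.4% of all genes, with medians of 0.40 and −0.06. With RAF inhibitors, 5 members were called, all higher, and 8.66% of all genes were called in either direction, with medians of 0.03 and −0.04. Fewer members were called with MEK, with ERK and with RAF inhibitors when replicate 2 of every kinase inhibitor combination was left out. Without replicate 1, fewer were called with MEK and with ERK inhibitors. Such fits keep 1 library per combination, and the share of all genes called in them was not set beside the members. A loss particular to the members therefore cannot be told from a general loss of calls. The sums of epithelial and fibroblast markers given above were also higher with MEK and ERK inhibitors in AsPC-1, and their part in these counts was not tested. The MEK, ERK and RAF comparisons share the libraries with an autophagy inhibitor alone, so their values are given side by side and not counted as support for each other. When ERK inhibitors were set against MEK inhibitors directly, edgeR called 0 of the 39 members (5 at an unadjusted p under 0.05, and 0 with DESeq2), and 0.744% of all genes.

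In PANC-1 fewer members were tested, and with each class fewer members and a smaller share of all genes were called than in AsPC-1. With MEK inhibitors 8 of the 27 members tested were called higher and 0 lower, against 7.90% and 10.6% of all genes, and the medians were 0.18 for the members tested and −0.02 for all genes. With ERK inhibitors 4 were called higher and 1 lower, against 5.45% and 8.68% of all genes, with medians of 0.08 and −0.02. With RAF inhibitors edgeR called 0 members (2 at an unadjusted p under 0.05, and 0 with DESeq2), against 0.539% of all genes. ERK set against MEK inhibitors gave 0 calls (5 at an unadjusted p under 0.05, and 0 with DESeq2), against 2.26% of all genes. The summed level of the 39 members was 490 to 756 CPM (median 599) with MEK inhibitors, 465 to 668 (median 569) with ERK inhibitors, 433 to 627 (median 550) with RAF inhibitors and 470 to 584 (median 524) with an autophagy inhibitor alone, so these groups overlapped. Most members called with MEK and with ERK inhibitors lost the call when replicate 1 or replicate 2 of every combination was left out. With ERK inhibitors all of them lost it without replicate 1. These fits keep 1 library per combination, and the share of all genes called in them was not set beside the members. The sums of fibroblast markers were also higher, and those of epithelial markers lower, with MEK and ERK inhibitors in PANC-1, and their part in these counts was not tested.

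**Figure D2:**
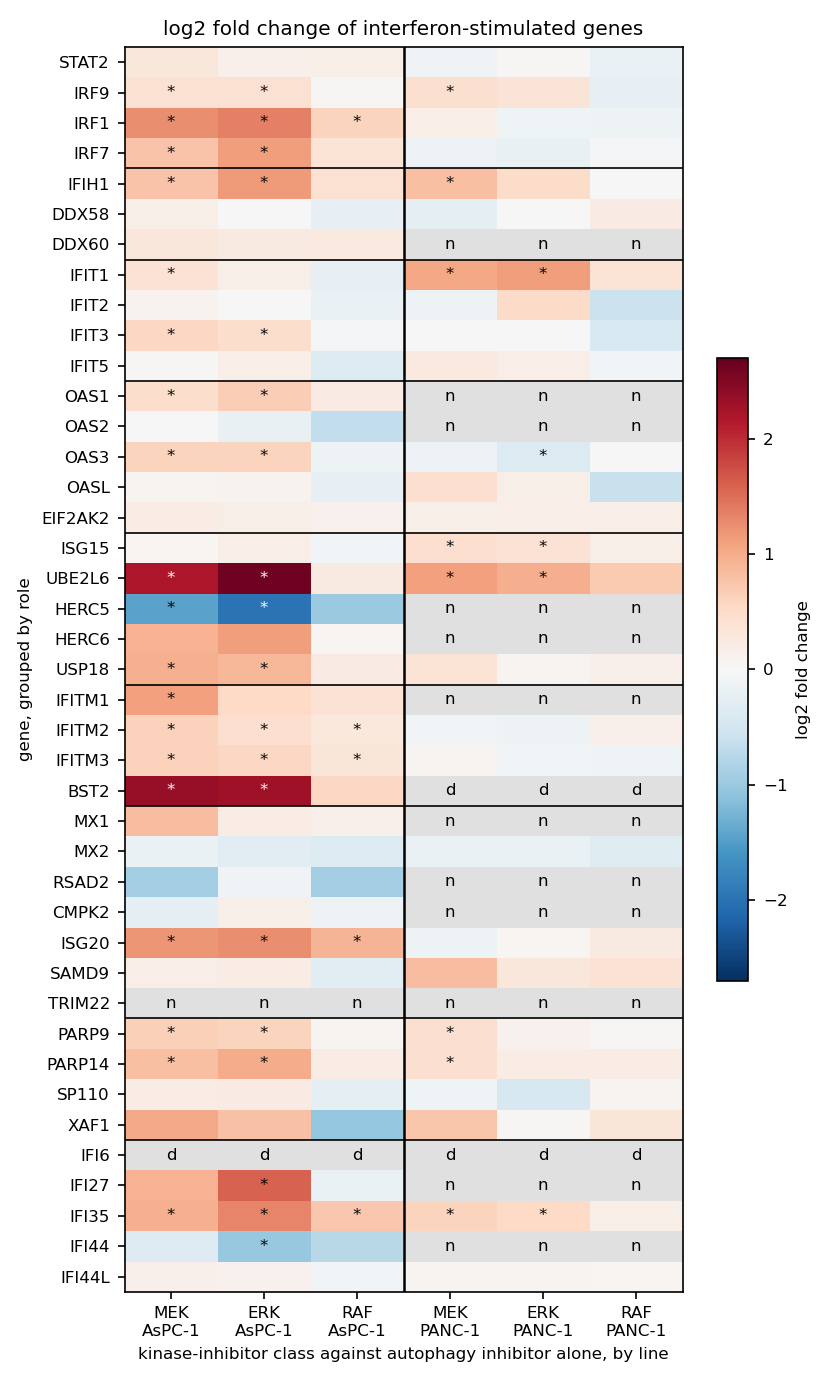
Log2 fold change of the 41 members (rows, grouped by role) for MEK, ERK and RAF inhibitors against an autophagy inhibitor alone in AsPC-1 and PANC-1 (columns). Red is higher and blue lower with the kinase inhibitor, an asterisk marks an adjusted p under 0.05, and grey cells are members dropped because of 1 library (d) or not tested (n). The AsPC-1 columns for MEK and ERK hold 19 asterisks each and the PANC-1 columns 8 and 5.

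Among the transcription factors, IRF1, IRF7 and IRF9 rose in AsPC-1 with MEK and with ERK inhibitors, while STAT2, a subunit of ISGF3, was not called. IRF1, which binds ISRE-like sites, had 9.04 to 49.5 CPM (median 24.8) with MEK inhibitors, 14.5 to 54.1 CPM (median 26.2) with ERK inhibitors, 6.06 to 48.6 CPM (median 16.4) with RAF inhibitors and 3.02 to 21.6 CPM (median 12.4) with an autophagy inhibitor alone. In 14 of 20 libraries with MEK inhibitors and 11 of 16 with ERK inhibitors, IRF1 exceeded its highest value with an autophagy inhibitor alone. Its log2 fold change was 1.26 ± 0.15 (SE) with MEK, 1.37 ± 0.16 with ERK and 0.60 ± 0.15 with RAF inhibitors (adjusted p = 4.6e-10, 9.7e-11 and 0.0052). IRF7, which amplifies interferon production, rose by 0.77 ± 0.19 and 1.14 ± 0.20 with MEK and ERK inhibitors. IRF9, the DNA-binding subunit of ISGF3, rose by 0.41 ± 0.14 and 0.40 ± 0.15. Without replicate 2 of the combinations the MEK inhibitor calls of IRF9 (0.17, adjusted p = 0.62) and IRF7 (0.60, adjusted p = 0.13) and the RAF inhibitor call of IRF1 (0.27, adjusted p = 0.65) were lost. The MEK inhibitor call of IRF9 was also lost without Vps34 inhibitor replicate 2, and its ERK inhibitor call in 4 fits that left out libraries, with 0.26 (adjusted p = 0.37) without replicate 1 of the combinations. In PANC-1 only IRF9 of these 4 was called, with MEK inhibitors (0.44 ± 0.12). That call was lost without replicate 1 of the combinations (0.53) and without replicate 2 (0.33). There IRF1 had 2.81 to 15 CPM (median 8.03) with MEK inhibitors and 3.60 to 26.9 CPM (median 6.07) with an autophagy inhibitor alone.

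Of the RNA sensors, IFIH1, which encodes MDA5 and detects long double-stranded RNA, rose in AsPC-1 by 0.78 ± 0.23 with MEK and 1.15 ± 0.23 with ERK inhibitors. Its level was 0.360 to 21.7 CPM (median 9.25) with MEK inhibitors, 3.42 to 17.2 CPM (median 11.2) with ERK inhibitors and 1.4 to 7.73 CPM (median 5.08) with an autophagy inhibitor alone. DDX58, which encodes the sensor RIG-I, and the helicase gene DDX60 were not called with either class. Without replicate 1 of the combinations the AsPC-1 call with MEK inhibitors was lost (0.29, adjusted p = 0.53). In PANC-1 IFIH1 rose with MEK inhibitors (0.82 ± 0.29, adjusted p = 0.044), a call that was lost in 10 of the 14 fits that each left out libraries.

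The IFIT proteins bind foreign RNA that lacks the host's cap marks. In AsPC-1 IFIT3 rose with MEK (0.56 ± 0.11) and ERK inhibitors (0.48 ± 0.11), IFIT1 with MEK inhibitors (0.39 ± 0.14), and IFIT2 and IFIT5 were not called. Without replicate 2 of the combinations the IFIT1 value was 0.04, not called, and IFIT3 was not called with MEK (0.43) or ERK inhibitors (0.33). The IFIT1 call was also lost without Vps34 inhibitor replicate 4 or hydroxychloroquine replicate 5. IFIT1 had 11.4 to 37.8 CPM (median 26.0) with MEK inhibitors, 12.1 to 29.9 CPM (median 21.9) with ERK inhibitors and 14.1 to 26.6 CPM (median 20) with an autophagy inhibitor alone, so the groups overlapped. In PANC-1 IFIT1 was the member with the smallest adjusted p in both classes. Its level there was 1.97 to 12 CPM (median 5.45) with MEK inhibitors, 2.68 to 13.6 CPM (median 6.20) with ERK inhibitors and 1.25 to 5.0 CPM (median 2.67) with an autophagy inhibitor alone. It lay above the highest library of an autophagy inhibitor alone in 14 of 20 and 11 of 16 libraries. Its log2 fold change was 1.04 ± 0.20 with MEK and 1.13 ± 0.21 with ERK inhibitors (adjusted p = 0.00013 and 7.0e-05). The MEK inhibitor call was lost without replicate 2 of the combinations (0.97, adjusted p = 0.056) and the ERK inhibitor call without replicate 1 (0.98, adjusted p = 0.085). The other IFIT genes were not called in PANC-1.

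The OAS enzymes make the second messenger that activates RNase L, and EIF2AK2 encodes PKR, which halts translation. OAS1 and OAS3 rose in AsPC-1, while OAS2, OASL and EIF2AK2 were not called. OAS3 had 51.3 to 122 CPM (median 71.9) with MEK inhibitors, 41.5 to 115 CPM (median 74.4) with ERK inhibitors and 30.6 to 63.5 CPM (median 48.1) with an autophagy inhibitor alone. With RAF inhibitors it had 23.3 to 62.0 CPM (median 42.8), and none of these 20 libraries exceeded the highest library of an autophagy inhibitor alone. The log2 fold change of OAS3 was 0.61 ± 0.09 with MEK and 0.60 ± 0.10 with ERK inhibitors. OAS1 had 55.1 to 120 CPM (median 81.7) with MEK inhibitors, 70.1 to 150 CPM (median 90.0) with ERK inhibitors and 48.6 to 79.8 CPM (median 59.5) with an autophagy inhibitor alone, with log2 fold changes of 0.48 ± 0.09 and 0.66 ± 0.09. In PANC-1 OAS3 fell by 0.38 ± 0.09 on the log2 scale with ERK inhibitors (adjusted p = 0.0024), a call that was lost without replicate 1 of the combinations (−0.22, adjusted p = 0.34). Its level there was 16.9 to 38.3 CPM (median 27.3) with ERK inhibitors and 24.6 to 41.9 CPM (median 35.5) with an autophagy inhibitor alone, and 6 of 16 libraries lay below the lowest library of an autophagy inhibitor alone. EIF2AK2 was among the 5 members with the highest mean CPM in each line and was called in neither.

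The genes of ISG15 conjugation moved in different directions in AsPC-1. UBE2L6, the enzyme that passes ISG15 to its ligases, rose by 2.19 ± 0.44 with MEK and 2.63 ± 0.45 with ERK inhibitors. Its level was low, at 0.489 to 6.4 CPM (median 2.60) with MEK inhibitors, 0.476 to 8.33 CPM (median 3.62) with ERK inhibitors and 0 to 2.83 CPM (median 0.580) with an autophagy inhibitor alone, where 3 of 12 libraries had no count. USP18, the protease that removes ISG15 and dampens the interferon receptor, rose by 0.97 ± 0.24 and 0.91 ± 0.25. Both USP18 calls were lost without replicate 2 of the combinations (values 0.80 and 0.84), and the ERK inhibitor call also without replicate 1 (0.82). HERC5, the main ligase for ISG15 in human cells, fell by 1.45 ± 0.54 with MEK and 1.98 ± 0.63 with ERK inhibitors (adjusted p = 0.035 and 0.012). HERC5 had 0 to 3.45 CPM (median 1.01) with MEK inhibitors, 0 to 4.74 CPM (median 0.366) with ERK inhibitors and 0.596 to 4.81 CPM (median 1.95) with an autophagy inhibitor alone. The HERC5 call was lost when the drugs of a class were taken as replicates (adjusted p = 0.10 and 0.14), and without replicate 2 of the combinations (values −0.98 and −1.98). With MEK inhibitors it was also lost in 4 fits that left out 1 library of an autophagy inhibitor alone. HERC6 was not called. ISG15 itself had 127 to 268 CPM (median 169) with MEK inhibitors, 101 to 258 CPM (median 197) with ERK inhibitors and 108 to 248 CPM (median 178) with an autophagy inhibitor alone, and was not called in either class. In PANC-1 ISG15 did rise, by 0.46 ± 0.10 with MEK and 0.38 ± 0.10 with ERK inhibitors, with 55.7 to 132 CPM (median 80.8), 40.5 to 142 CPM (median 76.6) and, for an autophagy inhibitor alone, 35.6 to 113 CPM (median 56.6). UBE2L6 rose there too, by 1.11 ± 0.22 and 0.97 ± 0.23, and exceeded its highest value with an autophagy inhibitor alone in 16 of 20 libraries with MEK and 13 of 16 with ERK inhibitors. Without replicate 1 and without replicate 2 of the combinations, ISG15 was not called in PANC-1 with MEK (values 0.44 and 0.47) or ERK inhibitors (0.44 and 0.30). UBE2L6 was not called with ERK inhibitors in those fits (0.95 and 0.94), nor with MEK inhibitors without replicate 1 (0.92).

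The membrane proteins IFITM1, IFITM2 and IFITM3 block the fusion of viruses with the cell, and BST2 (tetherin) holds virus particles at its surface. All 4 rose with MEK inhibitors in AsPC-1, and all but IFITM1 with ERK inhibitors. IFITM2 had 352 to 591 CPM (median 471) with MEK inhibitors, and 19 of 20 libraries lay above the highest of those with an autophagy inhibitor alone, which had 252 to 385 CPM (median 303). With ERK inhibitors it had 312 to 543 CPM (median 411) and with RAF inhibitors 217 to 571 CPM (median 413). Its log2 fold change was 0.63 ± 0.06, 0.45 ± 0.06 and 0.30 ± 0.06 for MEK, ERK and RAF inhibitors. IFITM3 had 151 to 287 CPM (median 238) with MEK inhibitors, 153 to 341 CPM (median 224) with ERK inhibitors and 104 to 224 CPM (median 161) with an autophagy inhibitor alone. Its log2 fold changes were 0.62 ± 0.08, 0.57 ± 0.08 and, for RAF inhibitors, 0.33 ± 0.08. The RAF inhibitor calls of IFITM2 and IFITM3 were lost without replicate 2 of the combinations (values 0.22 and 0.23). IFITM1 rose by 1.12 ± 0.23 with MEK inhibitors, with 9.37 to 30.9 CPM (median 19.5) against 4.79 to 14.4 CPM (median 7.33) with an autophagy inhibitor alone. The IFITM genes are near-identical copies, and the IFITM2 gene model overlaps IFITM1, so reads may have been split between them. BST2 was barely detected, with 0 to 3.54 CPM (median 1.19) with MEK inhibitors, 0 to 2.88 CPM (median 1.04) with ERK inhibitors and 0 to 1.49 CPM (median 0) with an autophagy inhibitor alone, where 7 of 12 libraries had no count. Its fitted fold changes of 2.36 ± 0.72 and 2.29 ± 0.74 depend on the handling of these zeros, and both calls were lost when either replicate of the kinase inhibitor combinations was left out. In PANC-1 neither IFITM2 nor IFITM3 was called. IFITM3 had 190 to 342 CPM (median 257) there with MEK inhibitors, 165 to 346 CPM (median 221) with ERK inhibitors and 186 to 284 CPM (median 232) with an autophagy inhibitor alone.

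Among the other effectors, ISG20, an exonuclease that degrades single-stranded RNA, rose in AsPC-1 in all 3 classes. It had 13.0 to 40.4 CPM (median 30.1) with MEK inhibitors, 18.1 to 40.9 CPM (median 31.2) with ERK inhibitors, 14.1 to 47.1 CPM (median 23.6) with RAF inhibitors and 6.87 to 25.3 CPM (median 13.0) with an autophagy inhibitor alone. In 15 of 20, 14 of 16 and 9 of 20 libraries it exceeded the highest library of an autophagy inhibitor alone. Its log2 fold changes were 1.19 ± 0.12, 1.26 ± 0.13 and 0.91 ± 0.12 (adjusted p = 3.7e-12, 1.8e-12 and 1.2e-07). The antiviral GTPase genes MX1 and MX2, RSAD2, which encodes viperin, CMPK2 and SAMD9 were not called in AsPC-1 in any of the 3 classes. Of the other effectors tested in PANC-1, MX2, ISG20 and SAMD9, none was called. In PANC-1 ISG20 had 1.47 to 16.5 CPM (median 5.29) with MEK inhibitors, 3.91 to 10.6 CPM (median 6.36) with ERK inhibitors and 3.33 to 8.04 CPM (median 6.18) with an autophagy inhibitor alone.

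PARP9 and PARP14, which attach or read ADP-ribose and act in interferon signalling, rose together in AsPC-1. PARP14 had 6.51 to 30.1 CPM (median 17.6) with MEK inhibitors, 12.4 to 27.1 CPM (median 19.6) with ERK inhibitors and 4.01 to 15.3 CPM (median 9.63) with an autophagy inhibitor alone, with log2 fold changes of 0.82 ± 0.17 and 1.00 ± 0.18. PARP9 rose by 0.64 ± 0.22 and 0.60 ± 0.23. The PARP9 call with MEK inhibitors was lost without replicate 1 of the combinations (value 0.40) and without replicate 2 (0.85). Its call with ERK inhibitors was lost in 6 of 14 fits that left out libraries, with 0.13 without replicate 1 of the combinations. The PARP14 call with MEK inhibitors was narrowly lost without replicate 2 (0.68, adjusted p = 0.050). In PANC-1 both rose with MEK inhibitors, PARP14 by 0.43 ± 0.14 and PARP9 by 0.43 ± 0.15, and the PARP9 call was lost in 7, and the PARP14 call in 3, of the 14 fits that left out libraries, both replicates of the combinations among them. The nuclear body gene SP110 and XAF1, a binding partner of the apoptosis inhibitor XIAP, were not called in either line.

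Of the genes named only for their induction by interferon, IFI35 rose in both lines. In AsPC-1 it had 6.03 to 24.6 CPM (median 12.6) with MEK inhibitors, 9.21 to 24.7 CPM (median 16.5) with ERK inhibitors, 3.53 to 22.0 CPM (median 12.8) with RAF inhibitors and 2.98 to 15.5 CPM (median 7.08) with an autophagy inhibitor alone. Its log2 fold changes there were 0.95 ± 0.17, 1.32 ± 0.18 and 0.72 ± 0.17, and in PANC-1 0.60 ± 0.15 with MEK and 0.53 ± 0.15 with ERK inhibitors. The RAF inhibitor call was lost without replicate 1 of the combinations (0.44, adjusted p = 0.28). In PANC-1 the MEK inhibitor call was lost without replicate 2 (0.43) and the ERK inhibitor call without replicate 1 (0.62) or replicate 2 (0.40). IFI27, a small mitochondrial protein gene, rose with ERK inhibitors in AsPC-1 (1.60 ± 0.40), with 1.52 to 22.4 CPM (median 4.59) against 0 to 5.03 CPM (median 1.14) with an autophagy inhibitor alone. That call was lost when either replicate of the combinations was left out, with values of 1.59 without replicate 1 and 1.28 without replicate 2. IFI44 fell by 1.02 ± 0.37 with ERK inhibitors (adjusted p = 0.026), with 0.425 to 3.80 CPM (median 1.63) against 0.849 to 8.05 CPM (median 2.35), so the groups overlapped, and the call was lost in 3 of 14 fits that left out libraries. IFI44L was not called in either line. IFI6 had 1937 CPM in Vps34 inhibitor replicate 1 of AsPC-1 and 2.35 to 14.8 CPM in the other 5 libraries of that group, which is why it was left out.

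**Figure D3:**
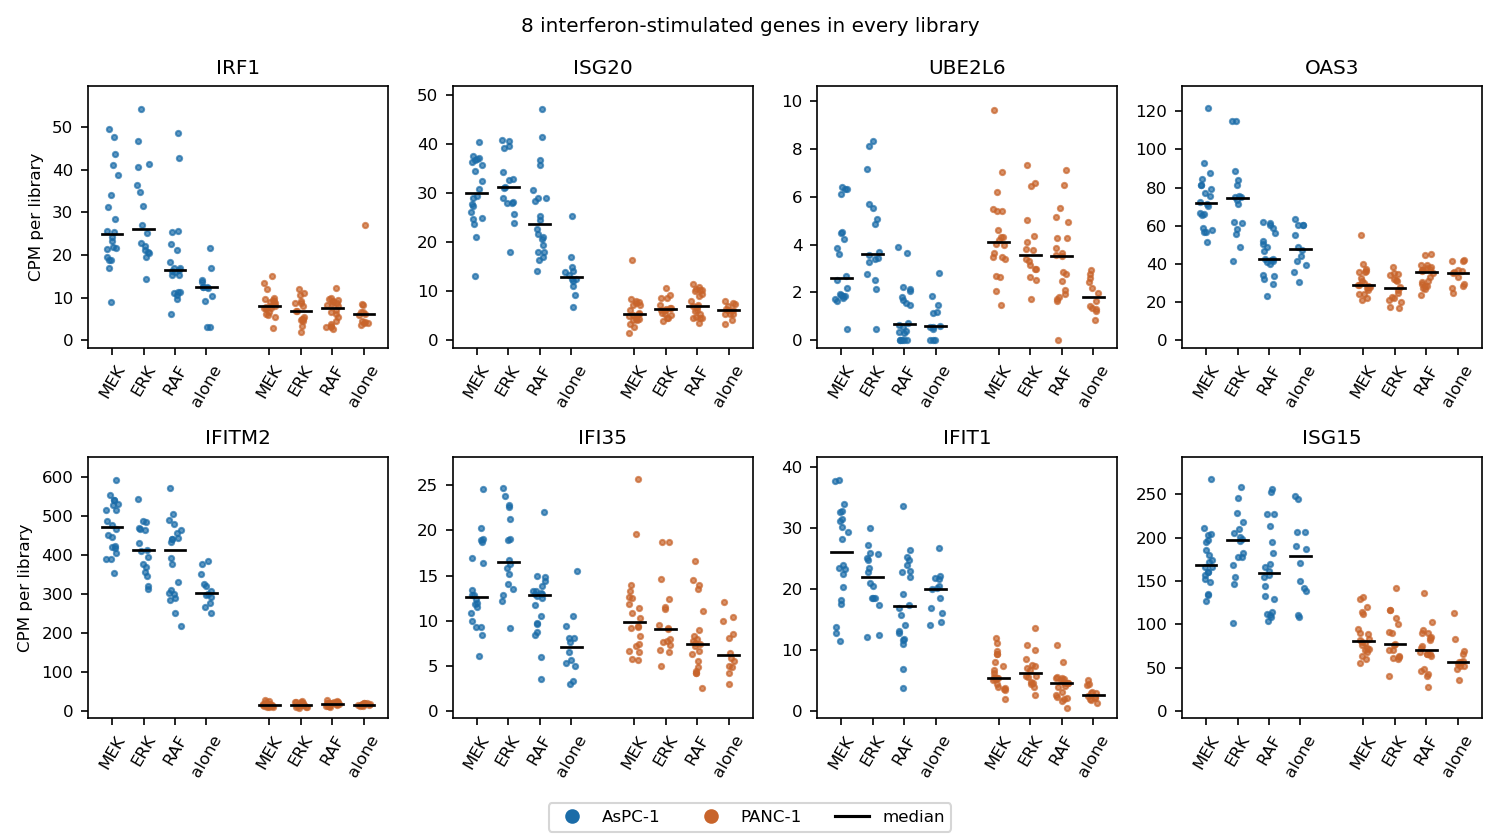
CPM of 8 members in every library (points) with the median (line), for MEK, ERK and RAF inhibitors and an autophagy inhibitor alone, in AsPC-1 (left, blue) and PANC-1 (right, orange). In AsPC-1 the medians of IRF1, ISG20, UBE2L6 and OAS3 are higher with MEK and ERK inhibitors than alone, while ISG15 overlaps fully (medians 169, 197 and 178 CPM). In PANC-1 the medians of UBE2L6 and IFIT1 are higher with MEK and ERK inhibitors than alone.

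Within plates, the drugs of a class have to serve as replicates. Values are given here for members with a small adjusted p in the fit of both plates. Agreement between the plates was therefore favoured in advance and is not counted as support. UBE2L6 and BST2, which had larger fold changes, are not among them. Of the named genes' values, 22 kept and 23 lost the call on plate A alone, and 19 kept and 26 lost it on plate B alone. In AsPC-1 the MEK inhibitor log2 fold change on plates A and B was 1.19 and 1.48 for IRF1, 1.08 and 1.4 for ISG20, 0.65 and 0.65 for IFITM2, 0.56 and 0.70 for IFITM3, and 0.44 and 0.84 for OAS3, each called on both plates. With ERK inhibitors the values were 1.21 and 1.65 for IRF1, 1.12 and 1.48 for ISG20, and 0.47 and 0.80 for OAS3. On plate A alone 16 members, and on plate B alone 12 members, were called with MEK inhibitors, and the same counts, 16 and 12, were found with ERK inhibitors. All of these were higher. Among all genes, 9.72% were called higher on plate A and 6.50% on plate B with MEK inhibitors, and 11.1% and 7.47% with ERK inhibitors. In PANC-1 the counts were 1 and 2 of 27 members with MEK inhibitors and 1 and 0 with ERK inhibitors. Among all its genes, 2.22% were called higher and 3.16% lower on plate A, and 3.08% and 3.83% on plate B, with MEK inhibitors, so nothing was read from counts this small. With ERK inhibitors 1.43% and 1.39% were called higher on plates A and B. IFIT1 in PANC-1 differed by 1.08 and 1.09 with MEK inhibitors, with adjusted p of 0.050 and 0.054 on plates A and B. The RAF calls of AsPC-1 numbered 2 on plate A and 1 on plate B, against 0.666% and 0.0862% of all genes called higher, with ISG20 at 0.78 and 1.17.

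The 2 autophagy inhibitors could be compared with each other in cells without a kinase inhibitor. In AsPC-1, 5 of the 39 members tested differed between the Vps34 inhibitor and hydroxychloroquine, 2 higher and 3 lower with the Vps34 inhibitor, against 3.21% and 2.72% of all genes. ISG15 had 187, 170, 206, 245, 206 and 248 CPM with the Vps34 inhibitor and 150, 108, 138, 190, 110 and 142 CPM with hydroxychloroquine. The groups overlapped in ISG15 only through 1 hydroxychloroquine library, and the log2 difference was 0.66 ± 0.13 (adjusted p = 0.00076). IFI35 had 8.03, 8.05, 10.6, 15.5, 9.39 and 6.53 CPM with the Vps34 inhibitor and 5.35, 3.28, 2.98, 5.03, 7.64 and 5.69 CPM with hydroxychloroquine, a difference of 1.00 ± 0.27. Here 1 hydroxychloroquine library lay within the range of the Vps34 inhibitor libraries, and the call was lost without Vps34 inhibitor replicate 4 (adjusted p = 0.091) or hydroxychloroquine replicate 3 (adjusted p = 0.052). IFITM3 was lower with the Vps34 inhibitor, at 104, 163, 154, 109, 134 and 117 CPM, against 188, 159, 224, 180, 193 and 187 CPM with hydroxychloroquine (−0.46 ± 0.12). STAT2 was lower as well, at 2.49, 0.895, 3.19, 0.859, 5.03 and 1.45 CPM with the Vps34 inhibitor and 8.73, 7.96, 7.45, 6.77, 7.92 and 4.5 CPM with hydroxychloroquine (−1.55 ± 0.43). Its groups overlapped only through 1 Vps34 inhibitor library at 5.03 CPM, and the call was lost without Vps34 inhibitor replicate 2 (adjusted p = 0.051). IRF1 was lower by 0.78 ± 0.24 on the log2 scale (adjusted p = 0.037), a call that was lost in 8 of 14 fits that left out libraries and became 0.055 without the plate term. None of the 5 differences was called within plate A or plate B alone, where each group has 3 libraries.

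In PANC-1, IFI35 was again higher with the Vps34 inhibitor, at 8.47, 12.1, 9.94, 5.51, 8.04 and 10.4 CPM, against 5.85, 2.92, 4.87, 6.44, 4.96 and 4.15 CPM with hydroxychloroquine (0.90 ± 0.23, adjusted p = 0.024). This was the only call among 27 members tested, against 1.31% of all genes higher and 1.18% lower, and it was lost in 6 of 14 fits that left out libraries. STAT2 in PANC-1 had 2.24, 3.75, 4.64, 5.87, 2.21 and 6.46 CPM with the Vps34 inhibitor and 3.34, 3.82, 2.97, 6.44, 4.60 and 3.73 CPM with hydroxychloroquine, and was not called.

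**Figure D4:**
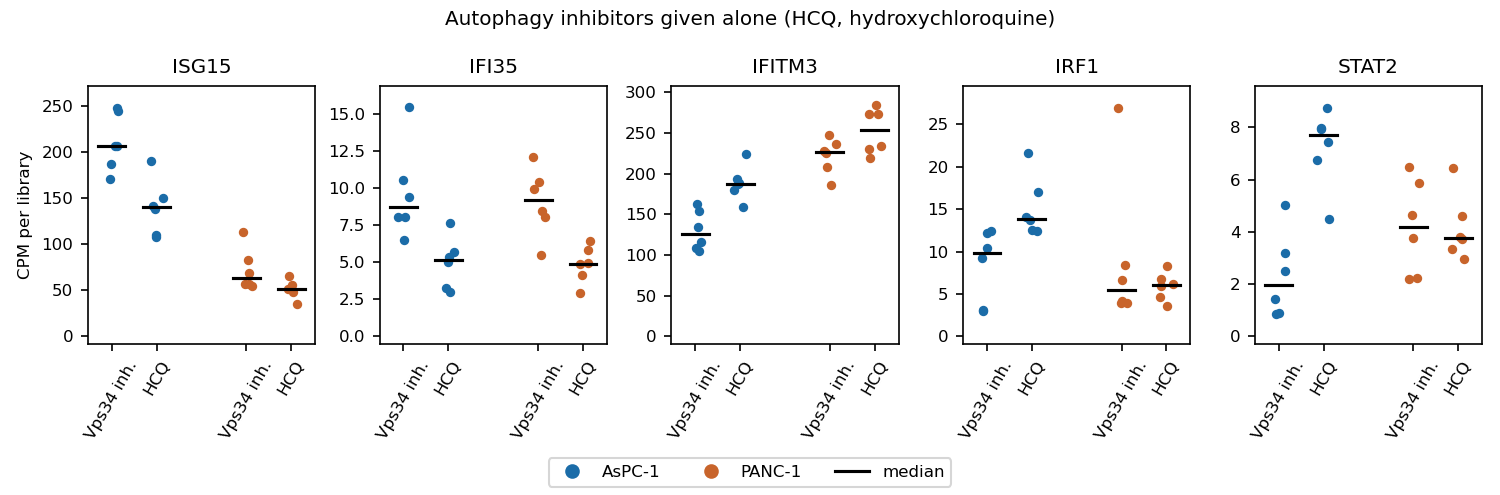
CPM of the 5 members called in AsPC-1 between autophagy inhibitors given alone, in each of 6 libraries per group (points) with the median (line), for the Vps34 inhibitor and hydroxychloroquine (HCQ) in AsPC-1 (blue) and PANC-1 (orange). ISG15 and IFI35 are higher, and IFITM3, IRF1 and STAT2 lower, with the Vps34 inhibitor in AsPC-1.

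The effect of MEK and ERK inhibitors was also taken separately under each autophagy inhibitor. In AsPC-1 with the Vps34 inhibitor, 15 members were called higher and 1 lower, against 10.2% and 14.9% of all genes. With hydroxychloroquine 14 were called higher and 0 lower, against 9.33% and 11.3%. ISG20 rose by 1.49 ± 0.17 with the Vps34 inhibitor and 0.96 ± 0.16 with hydroxychloroquine, and IRF1 by 1.37 ± 0.21 and 1.27 ± 0.20. A direct test of how the effect differed with the autophagy inhibitor called 0 of 39 members with edgeR (9 at an unadjusted p under 0.05, and 0 with DESeq2), against 0.212% of all genes. In PANC-1, 3 members were called higher and 0 lower with the Vps34 inhibitor, against 3.52% and 6.81% of all genes, and 3 higher and 1 lower with hydroxychloroquine, against 3.86% and 6.59%. The direct test called 0 of 27 members with edgeR (1 at an unadjusted p under 0.05, and 0 with DESeq2), against 0% of all genes. These tests do not show that the effects are alike under both inhibitors.

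Each kinase inhibitor was then set against the libraries with an autophagy inhibitor alone, with 4 libraries per drug and line. Over the 14 drugs, 132 member calls were higher and 4 lower in AsPC-1, and 28 higher and 4 lower in PANC-1. The drugs share the libraries with an autophagy inhibitor alone, and a member can be counted once per drug. These sums are therefore not independent calls and were not read as a result about the members. The share of all genes called, in either direction only, is given below for each drug. Fewer calls were made in both lines without replicate 1 or without replicate 2 of the combinations, with 1 library per combination left. Among MEK inhibitors in AsPC-1, Trametinib had 14 members called higher (15.4% of all genes called in either direction), Cobimetinib 13 (16.0%), Binimetinib 13 (16.1%), Selumetinib 7 (7.44%) and Refametinib 14 (17.6%), with 0 members lower for each. Among ERK inhibitors, SCH772984 had 12 higher (17.5%), Ulixertinib 13 (21.3%), AZD0364 14 (18.5%) and Ravoxertinib 13 higher and 1 lower (14.7%). The member lower with Ravoxertinib was HERC5, at −4.01, a gene with counts in only 53 of the 68 AsPC-1 libraries. The RAF inhibitors spread widely. RAF709 had 12 members higher and RSAD2 lower at −2.76 (12.7% of all genes), GDC-0879 had 6 higher and OASL lower at −0.50 (10.9%), and Dabrafenib had IFI35 higher at 1.049 and OASL lower at −0.65 (3.05%). RSAD2 had counts in only 59 of the 68 AsPC-1 libraries, which limits the precision of its value. PLX8394 had 0 members called (5 at an unadjusted p under 0.05; 0.760% of all genes), and Sorafenib had 0 (7 at an unadjusted p under 0.05; 0.102%).

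IRF1, ISG20 and OAS3 can be followed drug by drug in AsPC-1, with the Vps34 inhibitor libraries on plates A and B before the hydroxychloroquine libraries on plates A and B. The drugs shown were chosen after their values were seen. IRF1 had 25.7, 28.4, 43.7 and 47.7 CPM with Trametinib (1.69 ± 0.21), 25.2, 22.2, 54.1 and 40.6 CPM with Ravoxertinib (1.57 ± 0.22) and 16.9, 16.9, 48.6 and 42.6 CPM with RAF709 (1.35 ± 0.22). It had 10.6, 9.58, 11.4 and 18.4 CPM with PLX8394 (0.15 ± 0.25, not called) and 6.06, 11.1, 15.2 and 16.3 CPM with Sorafenib (0.07 ± 0.24, not called). With Trametinib, Ravoxertinib and RAF709, IRF1 was higher in both hydroxychloroquine libraries than in both Vps34 inhibitor libraries. IRF1 was also lower with the Vps34 inhibitor in cells without a kinase inhibitor, as given above. These levels alone therefore do not show a larger response with hydroxychloroquine, and the direct test of that difference did not call IRF1. ISG20 had 40.7, 40.9, 31.1 and 31.3 CPM with SCH772984 (1.45 ± 0.17), 29, 30.7, 28.5 and 47.1 CPM with GDC-0879 (1.33 ± 0.17) and 17.9, 16.4, 21.1 and 21.7 CPM with Dabrafenib (0.51 ± 0.19, not called). OAS3 was called with each MEK and ERK inhibitor, between 0.46 (Selumetinib) and 0.86 (Ravoxertinib), and with no RAF inhibitor, where it lay between −0.41 (PLX8394) and 0.24 (RAF709).

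In PANC-1, Trametinib had 7 members called higher (13.6% of all genes in either direction), Cobimetinib 6 (8.64%), Refametinib IFIT1 alone (6.49%), and Binimetinib and Selumetinib 0 (7.27% and 3.71%; 6 and 1 at an unadjusted p under 0.05). SCH772984 had 4 higher (6.88%), and Ravoxertinib IFIT1 alone (4.36%). Ulixertinib had 2 higher, with OAS3 and IFITM3 lower (14.6%), and AZD0364 had 2 higher, with OAS3 lower (5.24%). RAF709 had 5 higher (8.47%), and GDC-0879 had IFITM3 lower at −0.50 (0.420%). Dabrafenib, PLX8394 and Sorafenib had 0 members called (0.0871%, 0.143% and 0.0871%; 2, 1 and 2 at an unadjusted p under 0.05). IFIT1 had 9.92, 3.96, 13.6 and 10.9 CPM with SCH772984 (1.66 ± 0.29), 12, 7.42, 6.20 and 7.98 CPM with Cobimetinib (1.49 ± 0.29) and 4.74, 8.08, 5.44 and 10.7 CPM with RAF709 (1.28 ± 0.30). UBE2L6 had 9.64, 5.42, 4.03 and 7.02 CPM with Trametinib (1.72 ± 0.31). OAS3 had 22.2, 22.6, 17.7 and 16.9 CPM with Ulixertinib (−0.82 ± 0.15), all below its lowest library with an autophagy inhibitor alone, and 31.1, 34.1, 32.1 and 34.9 CPM with SCH772984 (−0.06 ± 0.14, not called).

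Whether the response to MEK and ERK inhibitors differed between the lines was tested in a fit over both lines for the 27 members kept and tested in each. Of these, 9 were called with a larger value in AsPC-1 and 1 with a smaller one, against 7.01% and 8.56% of all genes, and the median difference was 0.34 over the members and −0.04 over all genes. The log2 effect of OAS3 was 0.62 ± 0.08 in AsPC-1 against −0.26 ± 0.08 in PANC-1, a difference of 0.88 ± 0.12 (adjusted p = 5.4e-09). That of ISG20 was 1.23 ± 0.13 and −0.03 ± 0.13, a difference of 1.27 ± 0.18. That of IRF1 was 1.33 ± 0.18 and 0.03 ± 0.18, a difference of 1.29 ± 0.25. That of IRF7 was 0.96 ± 0.18 and −0.16 ± 0.19, a difference of 1.12 ± 0.26. UBE2L6 was called in both lines and more so in AsPC-1, by 1.39 ± 0.43. IFITM2 and IFITM3 differed by 0.65 ± 0.12 and 0.59 ± 0.10, PARP14 by 0.60 ± 0.20 and IFI35 by 0.57 ± 0.21. IFIT1 ran the other way, with 0.29 ± 0.14 in AsPC-1 against 1.09 ± 0.18 in PANC-1, a difference of −0.81 ± 0.22 (adjusted p = 0.0058). The labels do not say whether a drug had the same concentration in both lines, so a difference of line and one of concentration cannot be told apart.

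**Figure D5:**
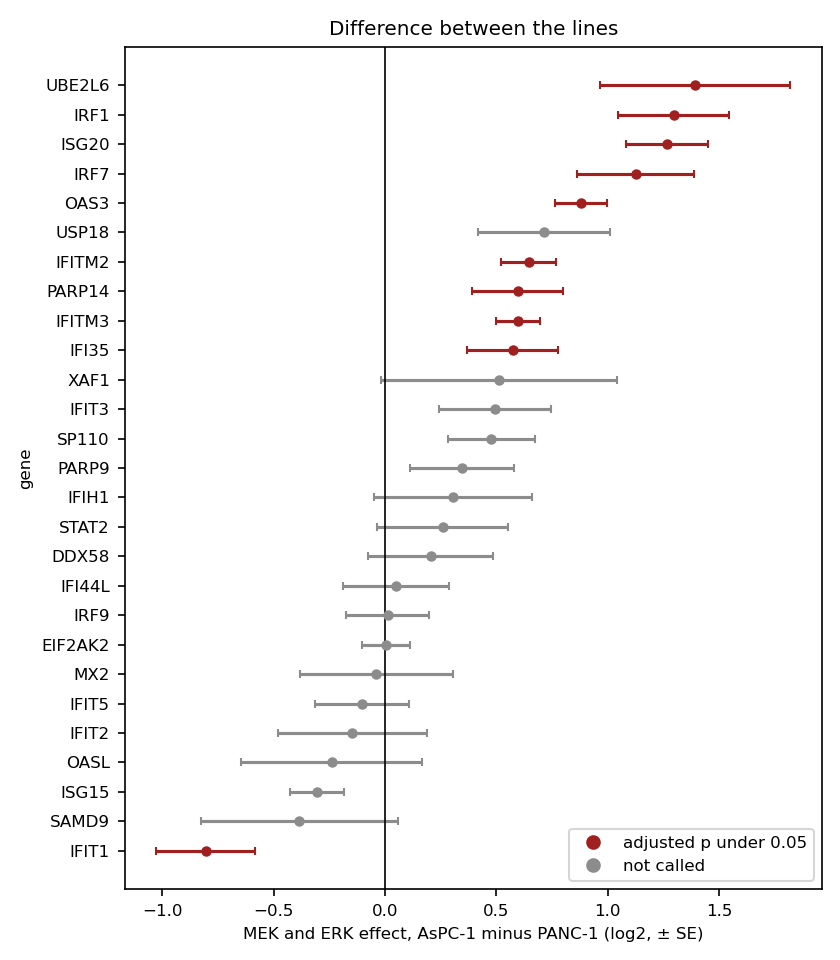
Difference between the lines in the log2 effect of MEK and ERK inhibitors, AsPC-1 minus PANC-1, for the 27 members tested in both (points) with the standard error (bars). Red points have an adjusted p under 0.05: 9 members lie to the right of 0 and IFIT1 to the left, at −0.81.

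Outside the 41 members, 43 genes upstream of them were followed as lists. The interferon genes themselves were almost silent. Of 11 interferon ligand genes, 5 had no count in any AsPC-1 library and 6 none in any PANC-1 library. IFNB1, the type I interferon that most cells can make, had counts in 1 AsPC-1 library with a MEK inhibitor and in no PANC-1 library. Only the type III interferon IFNL1 could be tested, and it was not called with any class in either line. It had 0 to 6.85 CPM (median 1.22) with MEK inhibitors and 0 to 4.74 CPM (median 1.2) with an autophagy inhibitor alone in AsPC-1.

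For these lists too, 12.9% of all genes in AsPC-1 were called higher and 16.1% lower with MEK inhibitors, and 13.7% and 17.4% with ERK inhibitors. Of the 6 interferon receptor genes tested in AsPC-1, 4 rose and 1 fell with MEK inhibitors, and the counts were the same with ERK inhibitors. IL10RB, shared by the type III interferon and interleukin-10 receptors, rose by 0.71 ± 0.07 and 0.78 ± 0.08, IFNGR1, the ligand-binding chain for interferon gamma, by 0.65 ± 0.12 and 0.84 ± 0.12, and IFNAR1, a chain of the type I receptor, by 0.72 ± 0.14 and 0.80 ± 0.15. IFNAR2, named after its value was seen, rose by 0.58 ± 0.12 and 0.59 ± 0.12. IFNGR2 fell by 0.32 ± 0.08 and 0.41 ± 0.08. IFNGR1 had 32.9 to 60.2 CPM (median 45.7) with MEK inhibitors, 26.2 to 71.3 CPM (median 49.1) with ERK inhibitors and 19.2 to 43.2 CPM (median 29.3) with an autophagy inhibitor alone. STAT3, which acts downstream of many cytokine receptors, rose with MEK (0.35 ± 0.12) and with ERK inhibitors (0.40 ± 0.12). Of 13 nucleic acid sensing genes 11 were tested, with 4 higher and 1 lower with MEK inhibitors and 3 higher and 1 lower with ERK inhibitors. TLR3, a sensor of double-stranded RNA in endosomes, rose by 2.24 ± 0.47 and 1.94 ± 0.49, and STING1, the adaptor for cytosolic DNA, by 0.58 ± 0.12 and 0.36 ± 0.12. The kinase gene IKBKE rose with MEK inhibitors (1.06 ± 0.37) and MAVS, the adaptor of the RNA sensors, with ERK inhibitors (0.38 ± 0.10) and, named after its value was seen, with MEK inhibitors (0.27 ± 0.10). CGAS, the DNA sensor upstream of STING1, fell by 0.59 ± 0.21 and 0.57 ± 0.22. Of the 6 negative regulators tested, the phosphatase gene PTPN6 rose (0.88 ± 0.20 and 0.86 ± 0.20), as did the ubiquitin ligase gene TRIM21 (0.57 ± 0.13 and 0.63 ± 0.13), and SOCS3, a feedback inhibitor of JAK kinases, fell (−1.38 ± 0.39 and −1.20 ± 0.41). With RAF inhibitors none of these lists had a call in AsPC-1, against 8.66% of all genes called in either direction.

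In PANC-1, where 7.90% of all genes were called higher and 10.6% lower with MEK inhibitors and 5.45% and 8.68% with ERK inhibitors, none of the 5 receptor genes tested was called with MEK inhibitors, and IFNGR2 fell by 0.26 ± 0.08 with ERK inhibitors. JAK1 rose by 0.70 ± 0.18 and 0.75 ± 0.18 with MEK and ERK inhibitors, and STAT3 by 0.62 ± 0.08 and 0.41 ± 0.08. STAT3 had 93.8 to 249 CPM (median 158) with MEK inhibitors, 87.0 to 191 CPM (median 135) with ERK inhibitors and 75.1 to 131 CPM (median 104) with an autophagy inhibitor alone. SOCS3 fell by 0.56 ± 0.12 and 0.58 ± 0.12. Of 8 nucleic acid sensing genes tested, MAVS rose (0.28 ± 0.07) and the adaptor gene TICAM1 fell (−0.90 ± 0.32) with MEK inhibitors, and the transcription factor gene IRF3 fell with ERK inhibitors (−0.28 ± 0.09). The autophagy inhibitors alone were also compared for these lists. In AsPC-1, 2 of 11 nucleic acid sensing genes tested and 1 of 5 JAK and STAT genes were lower with the Vps34 inhibitor. These were STING1 (−1.09 ± 0.19), TRIM25, the ligase that activates RIG-I (−0.54 ± 0.12), and STAT3 (−0.60 ± 0.19). Among all genes, 3.21% were called higher and 2.72% lower. None of these lists had a call in PANC-1, against 1.31% and 1.18% of all genes.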

How the data were processed

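PLATE-Seq libraries (68 per line, 34 per plate) were compared from the authors' table of gene counts, whole numbers per symbol as deposited. The submitters' processing notes name kallisto 0.44.0 and GRCh38, without their roles. Of 25435 symbols, 4605 had no count. Counts were tested per line with edgeR 4.0.16 (R 4.3.3): TMM scaling, the default expression filter by treatment, 1 term per treatment (30) plus a plate term, and robust quasi-likelihood F tests. The filter kept 12761 (AsPC-1) and 12627 (PANC-1) genes, with 37 residual degrees of freedom. The plate term is also the replicate block, since combination replicates 1 and 2 carried the title codes read as plates A and B. Classes are means of their drugs' terms. P-values were adjusted by Benjamini-Hochberg over all genes tested, threshold 0.05. The SE is the absolute log2 fold change divided by the square root of F. CPM used raw library totals, and genes are not compared by level because counts were not scaled by length. A fit of both lines gave the line difference. Each line had its own plates, so lines were compared by drug effect only.

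Alternatives were DESeq2 1.42.0, its size factors, no expression filter, no plate term, drugs of a class as replicates, each plate alone and libraries left out. The procedure was tested on simulated data. Tables used pandas 2.3.3, NumPy 2.4.6 and matplotlib 3.10.9 (Python 3.11.15). The members and gene lists were chosen with earlier results of these data known. Named genes were, in each comparison, up to 6 called members per direction with the smallest adjusted p, any called member with an absolute log2 fold change of at least 1, and the 5 members with the highest mean CPM in a line, with the other members by role. In the other lists, up to 3 called genes per direction were named. Some results of the upstream gene lists are not reported here.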

Additional observations from a re-analysis of the deposited data

Results flagged for a closer look

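In AsPC-1, IFI6 reached 1937 CPM in replicate 1 of the Vps34 inhibitor alone, while the other 5 libraries of that group had 2.35 to 14.8 CPM. The gap to the nearest library was 0.994 of the range of the group. In all, 16 sets of 6 values, each 1 gene in 1 group given an autophagy inhibitor alone, were examined for such a library. Chance flags about 1 in 20. For IFI6 the flag was fixed in advance and is no separate result, since the same library led to its removal by the 25% rule.

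The effect of MEK and ERK inhibitors differed between the lines, in a test of the difference itself (edgeR, both lines in 1 fit), for 10 members. The log2 difference, AsPC-1 minus PANC-1, was 0.88 for OAS3, 1.27 for ISG20, 0.59 for IFITM3, 0.65 for IFITM2, 1.29 for IRF1, 1.12 for IRF7, 1.39 for UBE2L6, 0.60 for PARP14 and 0.57 for IFI35. It was −0.81 for IFIT1. The adjusted p ran from 5.4e-09 for OAS3 to 0.044 for IFI35.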

How the results depend on the processing

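The counts of members called kept their size, within 1.5 times, in 261 recomputed values of the comparisons and summed levels (32 lower and 4 higher by more), and no direction reversed. Of the named genes' values, 325 stayed on their side of the threshold and 80 lost the call. Of 45 in each setting, 23 were lost on plate A only, 26 on plate B only, 5 with drugs as replicates and 1 without the plate term. With libraries left out, 16 were lost at the lowest value and 9 at the highest. With each plate alone, called members fell to 12 on plate B for MEK and for ERK inhibitors in AsPC-1, to 2 and 1 on plates A and B for its RAF inhibitors, to 1 and 2 for MEK and 1 and 0 for ERK inhibitors in PANC-1, and to 0 on both plates between the autophagy inhibitors in either line. With drugs as replicates, the autophagy inhibitors differed in 3 members (AsPC-1) and 0 (PANC-1, where DESeq2 called 2). These fits have fewer libraries or other error terms.

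Leaving out libraries gave 10 to 20 calls for MEK, 13 to 21 for ERK and 2 to 6 for RAF inhibitors, 0 to 1 for ERK against MEK inhibitors (IFITM1), 3 to 6 between the autophagy inhibitors and 57 to 143 over the single drugs in AsPC-1. In PANC-1 the ranges were 1 to 8, 0 to 6, 0, 0, 0 to 2 and 4 to 34. The largest drops came from leaving out replicate 1 or 2 of every combination, which leaves 1 library per treatment, assumed to vary like the others. The share of all genes called was not set beside the ranges above. A loss particular to the members thus cannot be told from a general loss of calls. Without the replicate block, counts in AsPC-1 were 19 for MEK, 19 for ERK and 5 for RAF inhibitors, 0 for ERK against MEK, 4 between the autophagy inhibitors, 0 for their interaction and 128 over the single drugs, in PANC-1 7, 5, 0, 0, 1, 0 and 28, and 10 between the lines. The line difference gave 8 to 10 calls under the alternatives run, and no libraries were left out for it. BST2 and UBE2L6 rest on few counts, which limits their precision.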
